A study of Mus musculus with 12 samples.

Results

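The genes described here are the 5 subunits of the transcription factor NF-κB (Nfkb1, Nfkb2, Rel, Rela and Relb) and 3 genes that regulate it or act beside it (Nfkbia, Tnfaip3 and Ikbke). They are 8 of the 770 genes counted in 12 A20 tumors, taken by symbol. A20 is a single mouse B-cell lymphoma line, which was grown under the skin of female Balb/c mice bought at 7 to 8 weeks of age. From about day 7 after implantation, tumors received 3 intratumoral injections, 1 every other day, of PBS (4 mice), of the stable emulsion SE alone (4 mice) or of GLA-SE (4 mice). GLA-SE, called G100 by the study, is 10 µg of the synthetic TLR4 agonist GLA in 50 µl of 2% SE. Every tumor was taken 2 h after the last injection, and each is a separate mouse. RNA of the whole tumor was counted, so more cells of a type and more RNA per cell cannot be told apart in any value below.

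NF-κB is a family of dimers that rest in the cytoplasm, bound by inhibitors such as IκBα. Signals from TLR4, which GLA engages, activate the IKK kinases, IκBα is degraded, and the dimers enter the nucleus. Among the first genes they switch on are those of their own inhibitors, which makes the pathway a textbook case of negative feedback. Nfkb1 encodes p105, the precursor of p50, and Nfkb2 encodes p100, the precursor of p52. Rela, Rel and Relb encode the subunits that carry a transactivation domain, of which RelA serves the canonical arm and RelB, with p52, the non-canonical arm. Nfkbia encodes IκBα. Tnfaip3 encodes A20, a ubiquitin-editing enzyme that ends signaling and shares only its name with the tumor line. Ikbke encodes IKKε, a kinase related to TBK1 that acts in interferon induction, so it is an inducible kinase of the pathway and not an inhibitor.

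The promoters are shown because κB sites in them are the sequence through which the family can act on its own genes. RefSeq promoter windows (GRCm38.p6, 250 bases before to 50 after a start) were found for 6 of the 8 genes, 9 windows in all, since Nfkb2 had 3 and Tnfaip3 had 2. At least 1 match to the κB consensus, searched on both strands with overlapping matches merged, lay in a window of Nfkb2, Rel, Nfkbia and Tnfaip3, in 6 of the 9 windows. None lay in the windows of Rela and Ikbke. Of all 32851 windows, 8.46% held a match. The windows of a gene are not independent: 2 windows of Nfkb2 overlap and share 1 match, which counts in both. A match is a description of these letters and not a binding site measured here. The 100 bases before the start are given 5′ to 3′ on the strand of the gene, with matches in capitals. In order they are chr12:55492648-55492747 (minus strand), chr10:19015411-19015510 (minus), chr19:46304637-46304736 (plus), chr11:23770970-23771069 (minus) and, as a promoter with no match, chr19:5637441-5637540 (plus).
Nfkbia: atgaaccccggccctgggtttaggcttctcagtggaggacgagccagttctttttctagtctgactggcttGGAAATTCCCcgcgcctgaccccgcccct
Tnfaip3: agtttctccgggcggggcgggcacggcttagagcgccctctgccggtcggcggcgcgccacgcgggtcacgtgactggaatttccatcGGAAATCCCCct
Nfkb2: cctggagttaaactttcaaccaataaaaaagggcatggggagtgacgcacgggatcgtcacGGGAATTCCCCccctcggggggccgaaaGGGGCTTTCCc
Rel: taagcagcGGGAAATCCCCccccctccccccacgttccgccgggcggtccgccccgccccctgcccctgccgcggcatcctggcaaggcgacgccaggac
Rela: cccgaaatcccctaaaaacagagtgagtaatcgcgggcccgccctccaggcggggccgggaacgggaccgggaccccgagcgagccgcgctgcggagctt
The match of Nfkbia began 29 bases before the start and that of Rel 92 bases before it. Nfkb2 held matches that began 39 and 11 bases before the start shown. Tnfaip3 held 1 that began 12 bases before the start and another, outside the stretch shown, that began 125 bases before it.

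Total counts ran from 810260 to 1612415 per tumor, and the 8 genes had between 72 and 14122 counts, so none was near the floor of the assay. Values below are normalized counts, the deposited counts scaled to the geometric mean of 16 stable reference genes of the panel. On that scale the whole panel was shifted: over the 750 tested genes the median log2 fold change of GLA-SE tumors was 0.90 over PBS and 0.25 over SE, and that of SE tumors was 0.51 over PBS. Scaling to the panel median count instead moved the first of these to -0.40, so each rise below is a rise relative to the reference genes. TMM scaling moved it to -0.0087 and DESeq2's own size factors to 0.049. Panel-median scaling thus lowered the panel most in GLA-SE against PBS and went past its center. Some tumors stood apart within their group. GLA-SE replicate 3 was the highest of its group for 58.3% of tested genes, and its summed neutrophil markers were 9017 against 814 to 2180 in the other GLA-SE tumors. Most of that sum was S100a8 alone (7805). SE replicate 4 was the highest of its group for 73.6% of tested genes. Its 8 endothelial and fibroblast markers summed to 119402 against 3479 to 27968 in the other SE tumors, and its reference genes had the lowest geometric mean of all (927). SE replicate 3 also differed from SE replicates 1 and 2. These endothelial and fibroblast markers summed to 27968 in it, against 3479 and 4346. Its monocyte and macrophage markers summed to 11303.5, against 2614 and 2150. The 8 B-cell markers, which check the label of a B-cell lymphoma, summed to between 14090 and 23283 in every tumor.

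The comparison of GLA-SE with PBS asks what the full preparation did to these genes. On the reference scale 6 of the 8 were higher in GLA-SE tumors by edgeR's quasi-likelihood test (adjusted p under 0.05), none was lower, and Nfkb2 and Rel were not called. Over the panel 68.4% of tested genes were called higher, so the share is near the background. The direction of the subunits depended on the scaling: with tumors scaled to the panel median 0 of the 8 genes were higher and the 5 subunits were lower, and with TMM or with DESeq2's own size factors 4 of the subunits (all but Relb) were lower. On the reference scale the 3 regulators had the larger changes, from 2.84-fold to 3.63-fold in mean level. The 5 subunits had the smaller ones, from 1.08-fold to 1.75-fold. Without GLA-SE replicate 3 the log2 fold changes were 0.84 to 1.46 for the regulators, in place of 1.51 to 1.86, and -0.039 to 0.57 for the subunits, in place of 0.11 to 0.81. Which set had the larger absolute change also depended on the scaling. With panel-median scaling the log2 fold changes were 0.11 to 0.45 for the regulators and -1.21 to -0.53 for the subunits. Every regulator thus still lay above every subunit. All 3 regulators lay above the median log2 fold change of the panel and all 5 subunits below it. The groups did not overlap for the same number of genes, 6 of 8, where 63.7% of tested genes had every GLA-SE tumor above every PBS tumor.

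**Figure D1:**
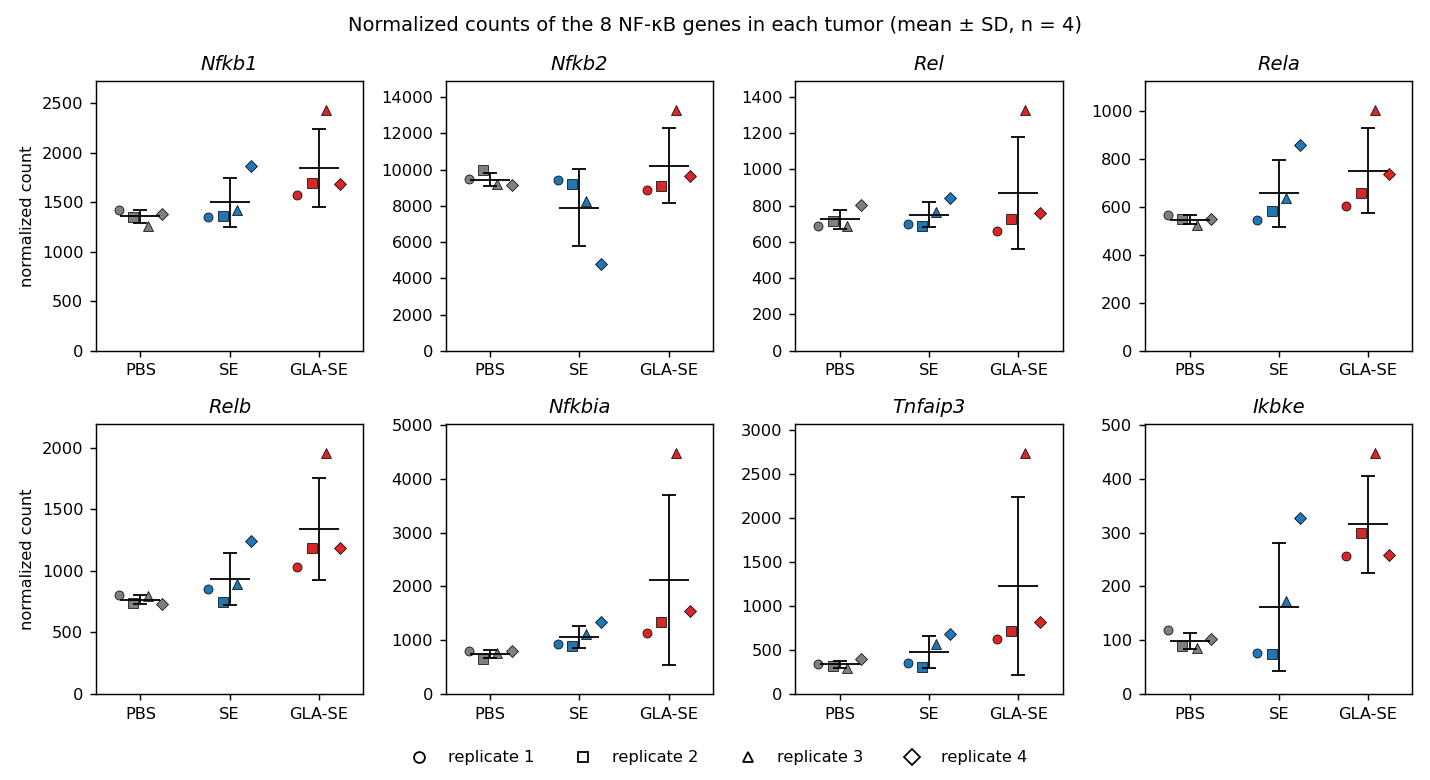
Normalized counts (vertical axes, linear and starting at 0) of the 8 NF-κB genes in PBS, SE and GLA-SE tumors, with a marker shape per replicate number and bars for the mean ± SD of 4 tumors. GLA-SE replicate 3 (red triangle) is the highest GLA-SE tumor for 8 of 8 genes, and SE replicate 4 (blue diamond) is the highest SE tumor for 7 and the lowest for Nfkb2.

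Among the inhibitors, Tnfaip3 counts were 340, 317, 297 and 395 in the PBS tumors, 348, 306, 572 and 676 in the SE tumors, and 628, 715, 2737 and 817 in the GLA-SE tumors. Every GLA-SE tumor was above every PBS tumor, whereas GLA-SE replicate 1 was below SE replicate 4. The log2 fold change against PBS was 1.86 ± 0.47 (SE of the estimate, n = 4 against 4, edgeR adjusted p = 0.00788). Without GLA-SE replicate 3 the change was 1.09 (edgeR adjusted p = 0.000339). Under panel-median scaling the estimate fell to 0.45 and was not called (edgeR adjusted p = 0.300).

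Nfkbia counts were 795, 641, 756 and 797 with PBS, 921, 893, 1110 and 1341 with SE, and 1132, 1330, 4483 and 1544 with GLA-SE. Every SE tumor and every GLA-SE tumor was above every PBS tumor. Against PBS the GLA-SE change was 1.51 ± 0.42 on the log2 scale (edgeR adjusted p = 0.0123), and 0.84 without replicate 3 (edgeR adjusted p = 0.000741). Under panel-median scaling it was 0.11 and not called (edgeR adjusted p = 0.782).

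Ikbke, the inducible kinase, was the most evenly raised of the 3. Its counts were 118, 89, 86 and 102 in PBS tumors, 75, 74, 173 and 327 in SE tumors, and 257, 300, 448 and 259 in GLA-SE tumors. The GLA-SE tumors varied by 28.6% (CV), against 82.6% for Tnfaip3 and 74.6% for Nfkbia. The log2 fold change over PBS was 1.68 ± 0.23 (edgeR adjusted p = 0.000489) and was still 1.46 without replicate 3 (edgeR adjusted p = 0.000214). It was 0.36 and not called when tumors were scaled to the panel median (edgeR adjusted p = 0.0744).

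Of the subunits, Relb changed most on the reference scale and least under panel-median scaling. Relb counts were 802, 740, 792 and 731 with PBS, 851, 750, 893 and 1243 with SE, and 1035, 1188, 1958 and 1189 with GLA-SE. All GLA-SE tumors exceeded all PBS tumors, and the highest SE tumor exceeded 3 of the GLA-SE tumors. The log2 fold change was 0.81 ± 0.20 over PBS (edgeR adjusted p = 0.00675) and 0.57 without replicate 3 (edgeR adjusted p = 0.000891). It was -0.53 under panel-median scaling, a called change in the opposite direction (edgeR adjusted p = 0.0150). TMM and DESeq2's own size factors also gave a negative estimate for Relb, but it was not called under either.

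Rela, the canonical transactivating subunit, had 566, 546, 522 and 547 counts with PBS, 546, 581, 635 and 857 with SE, and 604, 658, 1003 and 734 with GLA-SE. Nfkb1 had 1425, 1354, 1264 and 1378 with PBS, 1354, 1362, 1416 and 1864 with SE, and 1577, 1694, 2431 and 1688 with GLA-SE. For both genes every GLA-SE tumor lay above every PBS tumor by a small margin. The log2 fold changes were 0.46 ± 0.16 for Rela (edgeR adjusted p = 0.0332) and 0.45 ± 0.15 for Nfkb1 (edgeR adjusted p = 0.0236). Without replicate 3 both were 0.29, with edgeR adjusted p = 0.0357 for Rela and 0.0113 for Nfkb1. Rela was no longer called when any 1 PBS tumor or GLA-SE replicate 4 was left out, and Nfkb1 when PBS replicate 2, 3 or 4 was. Neither was called in 1 fit of all 12 tumors or with the replicate number as a block, and Rela was not called with all 20 reference genes. Under panel-median scaling both turned to lower in GLA-SE, by -0.86 for Rela and -0.87 for Nfkb1.

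Rel, which encodes c-Rel, and Nfkb2 were not called. Rel counts were 687, 717, 689 and 800 with PBS, 699, 690, 767 and 839 with SE, and 660, 726, 1327 and 760 with GLA-SE. Nfkb2 counts were 9499, 9965, 9197 and 9160 with PBS, 9407, 9186, 8248 and 4787 with SE, and 8852, 9107, 13300 and 9644 with GLA-SE. In each gene the GLA-SE tumors other than replicate 3 lay in or close to the range of the PBS tumors. The log2 fold changes over PBS were 0.26 for Rel (95% interval -0.24 to 0.76, edgeR adjusted p = 0.304) and 0.11 for Nfkb2 (95% interval -0.20 to 0.42, edgeR adjusted p = 0.472). Without replicate 3 they were -0.017 and -0.039, and under panel-median scaling -1.08 and -1.21, both then called lower.

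**Figure D2:**
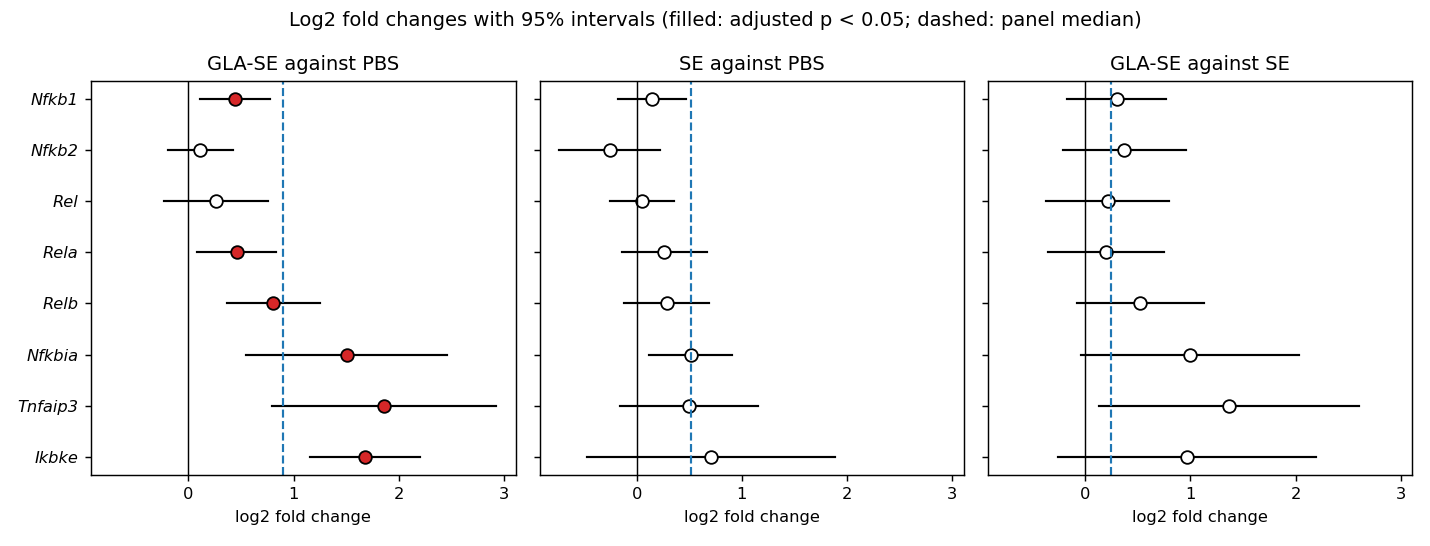
Log2 fold change of each gene (horizontal axes) with its 95% interval from edgeR in the 3 comparisons, filled where the adjusted p was under 0.05, with a dashed line at the median of the 750 tested genes. In GLA-SE against PBS 6 of 8 points are filled, and the 3 regulators lie to the right of the median of 0.90 and the 5 subunits to its left.

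The comparison of SE with PBS asks what the emulsion did without GLA. None of the 8 genes was called, and the edgeR test called 0% of tested genes higher. It gave 134 tested genes an unadjusted p under 0.05, and DESeq2 on the same reference scale called 47 higher and 6 lower. Nfkbia was the 1 gene of the 8 whose SE tumors all lay above the PBS tumors, as 8.0% of tested genes did. Its log2 fold change was 0.51 ± 0.17 (edgeR adjusted p = 0.256, DESeq2 adjusted p = 0.0371), and 0.38 without SE replicate 4 (edgeR adjusted p = 0.392). For the other genes the estimates ran from -0.26 for Nfkb2 to 0.71 for Ikbke. Without SE replicate 4 that of Ikbke was 0.12 and that of Nfkb2 -0.080.

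Nfkb2 in SE replicate 4 went against the other genes. It had 4787 counts, against 8248 to 9407 in the other SE tumors, while the other 7 genes were at their highest there. The B-cell markers were also at their lowest in that tumor (14090, against 17382 to 22665 in the other SE tumors) and the endothelial and fibroblast markers at their highest. The part of these cell markers in the value of Nfkb2 was not tested.

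The comparison of GLA-SE with SE asks what GLA added to the emulsion. None of the 8 genes was called, where 2.13% of tested genes were called higher, and none had all GLA-SE tumors above all SE tumors, where 14.7% of tested genes did. The 16 tested genes behind the first share became 104 without SE replicate 4 and 4 without GLA-SE replicate 2, GLA-SE replicate 4 or SE replicate 3. The unadjusted p was under 0.05 for 1 of the 8, Tnfaip3. Its log2 fold change was 1.37 ± 0.54 (95% interval 0.13 to 2.60, edgeR adjusted p = 0.223). Nfkbia differed by 0.99 (-0.044 to 2.03) and Ikbke by 0.97 (-0.25 to 2.19), whereas the subunits differed by 0.20 for Rela to 0.52 for Relb. Leaving out SE replicate 4 raised Ikbke to 1.56 (edgeR adjusted p = 0.0494), the only call among the 8 in this comparison when a single tumor was left out. Without GLA-SE replicate 3 Tnfaip3 differed by 0.60 and Nfkbia by 0.32. The intervals include differences as large as those against PBS, so the absence of a call does not show that GLA-SE and SE tumors were alike.

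**Figure D3:**
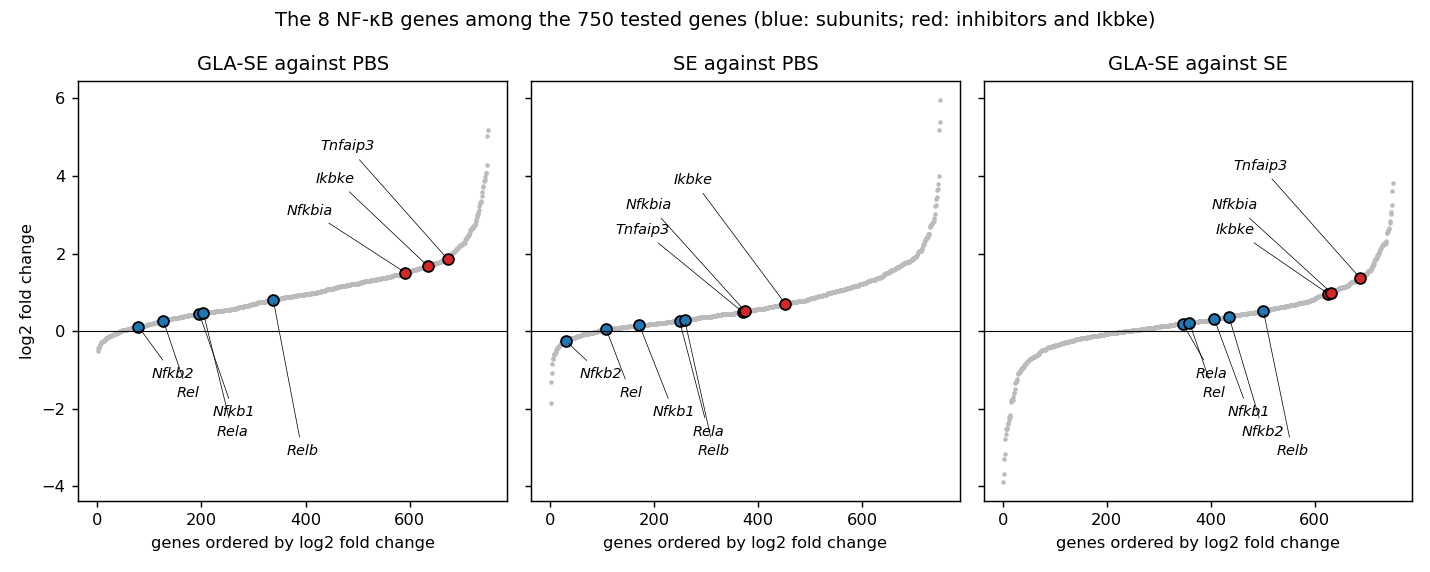
The 750 tested genes in order of log2 fold change (grey) in the 3 comparisons, with the subunits in blue and Nfkbia, Tnfaip3 and Ikbke in red. In GLA-SE against PBS, Tnfaip3 exceeds 89.6% of tested genes and Nfkb2 exceeds 10.4%.

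Since the direction of the subunits turned with the scaling, each gene was also set against Rela in the same tumor, a ratio of deposited counts that no scaling can change. In GLA-SE against PBS the log2 ratio to Rela was higher by 1.22 for Ikbke, 1.15 for Tnfaip3, 0.84 for Nfkbia and 0.33 for Relb. For these 4 genes all GLA-SE tumors were above all PBS tumors (exact permutation p = 0.0286, two-sided, the smallest that 4 against 4 allows), as were 37.9% of the 749 ratios to Rela on the panel. The exact permutation p adjusted over the 749 ratios was 0.0671 for each, so none passed 0.05. The ratio of Nfkb2 was lower by 0.34, with every GLA-SE tumor (3.72 to 3.87) below every PBS tumor (4.07 to 4.19) and the same exact p, as were 4.67% of ratios. Nfkb1 kept close to Rela, with mean log2 ratios of 1.31 ± 0.08 and 1.31 ± 0.03 (SD, n = 4 each, exact permutation p = 0.971). Rel was lower by 0.22 relative to Rela (exact permutation p = 0.114).

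These differences between GLA-SE and PBS were also present without GLA-SE replicate 3, when they were 1.19 for Ikbke, 0.81 for Tnfaip3, 0.55 for Nfkbia, 0.29 for Relb and -0.32 for Nfkb2, each without overlap (exact permutation p = 0.0286). With Tbk1 in place of Rela as the denominator, the ratios of Ikbke, Tnfaip3 and Nfkbia were higher and that of Nfkb2 lower, all without overlap, but that of Relb overlapped (0.22, exact permutation p = 0.0857). These ratios show unequal change and not which of the paired genes changed.

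In SE against PBS only the ratio of Nfkbia to Rela lay apart, higher by 0.26 (exact permutation p = 0.0286, adjusted 0.510), where 2.94% of ratios lay above and 2.67% below. In GLA-SE against SE, Tnfaip3 was higher by 0.96, Nfkbia by 0.58 and Relb by 0.31 relative to Rela, all without overlap (exact permutation p = 0.0286, adjusted 0.221). There 12.7% of ratios lay above and 0.267% below. The ratio of Ikbke was higher by 1.02 with overlap (exact permutation p = 0.0571). With Tbk1 as denominator only that of Tnfaip3 had no overlap, at 0.83.

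**Figure D4:**
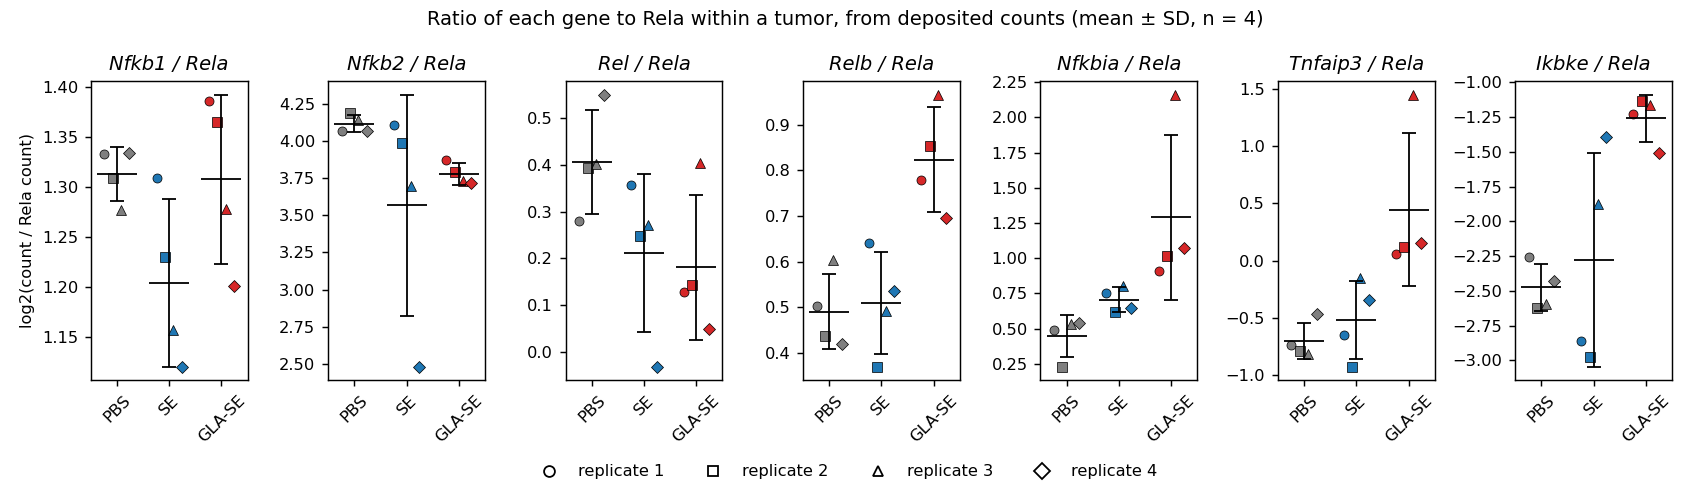
Log2 ratio of the deposited count of each gene to that of Rela in the same tumor (vertical axes, each with its own range), with bars for the mean ± SD of 4 tumors and a marker shape per replicate number. The GLA-SE tumors lie above all PBS tumors for Relb, Nfkbia, Tnfaip3 and Ikbke and below them for Nfkb2.

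Across the 12 tumors, which share the scaling, Nfkb2 stood apart from the other 7 genes. Its Pearson r with them, on log2(normalized count + 1), lay between -0.10 and 0.29, while the other pairs lay between 0.59 (Rel with Ikbke) and 0.98 (Nfkbia with Tnfaip3). These values describe 12 tumors in 3 groups and lean on the distant tumors named above. Of 624 candidate genes, those most like the inhibitors were Ccrl2 and Sbno2 for Tnfaip3 (r = 0.99 for both) and Il1a and Ccrl2 for Nfkbia (0.98 for both). For Ikbke they were Csf2rb and Ifih1 (0.99 for both). For Relb they were Ccr7 and Tank (0.98 for both), for Nfkb1 Icosl and Prg2 (0.97 for both), and for Rela Prg2 (0.96) and Osm (0.95). Rel was most like Lif (0.94) and Il12b (0.91), and Nfkb2 most like Batf and C1qbp (0.92 for both).

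Other genes of the pathway were read from lists, in GLA-SE against PBS on the reference scale. The counts below stand beside 68.4% of all tested genes called higher on that scale, and beside 61 higher and 307 lower of 750 under panel-median scaling. For TMM these were 148 and 168, and for DESeq2's own size factors 190 and 152. Of the TLR4 receptor complex and MyD88 adaptors 9 of 10 genes were called higher, but under panel-median scaling 1 was higher and 7 were lower. TMM and DESeq2's own size factors each gave 3 higher and 3 lower. Cd14, the coreceptor that hands ligand to TLR4 and also a monocyte marker, went from 169 ± 35.3 (SD, n = 4) with PBS to 2208 ± 3085 with GLA-SE, where replicate 3 held 6806. Its log2 fold change was 3.71 (edgeR adjusted p = 0.00777) and 2.00 without that tumor. Lbp, the lipopolysaccharide-binding protein, differed by 1.81 (edgeR adjusted p = 0.00258). Its mean was 520 ± 603 with SE, above the 354 ± 104 with GLA-SE, and the change of SE over PBS was 2.36 but not called (edgeR adjusted p = 0.256).

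The shares of the next 3 lists lie at or under that of the panel. Of the IKK complex and its upstream kinases 4 of 6 were called higher, led by Map3k1 (0.82) and Ikbkg, the scaffold NEMO (0.51), whereas under panel-median scaling all 6 were called lower. Map3k1 differed from PBS by 0.91 in SE tumors too, uncalled (edgeR adjusted p = 0.256). Of the TBK1 arm of TLR4 signaling 3 of 6 were called higher, led by Tank (0.85) and the kinase Tbk1 (0.56), and under panel-median scaling all 6 were lower. Of the CARD and RIP adaptors 3 of 5 were higher, among them Card9 (0.88), whose means were low (13.4 with PBS and 24.8 with GLA-SE). Under panel-median scaling 4 of the 5 adaptors were lower. Both TMM and DESeq2's own size factors called 5 of the IKK list, 4 of the TBK1 arm and 3 of the adaptors lower. Like the NF-κB subunits, these signaling parts had list medians of 0.37 to 0.47, under the panel median of 0.90.

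Higher medians were found among receptors and targets. Of the receptors of the non-canonical arm and TNF receptors 5 of 6 were called higher with a median of 1.23, led by Tnfrsf1b (1.85), which encodes TNF receptor type II, and Tnfrsf11a (1.38), which encodes RANK. Under panel-median scaling 0 were higher and 1 was lower, and with TMM or DESeq2's own size factors 3 were higher and 1 lower. The median of this list was 1.11 in SE against PBS and 0.04 in GLA-SE against SE, and Tnfrsf11a had a mean of 154 ± 133 with SE and 143 ± 14.6 with GLA-SE. Of 23 textbook NF-κB target genes 18 were called higher, with a median of 2.25 (0.69 in SE against PBS), and under panel-median scaling 8 were higher and 3 lower. The counts were 13 higher and 2 lower with TMM and with DESeq2's own size factors. Il1b, the inflammatory cytokine, differed by 5.20 (edgeR adjusted p = 0.00254) and Ptgs2, which encodes COX-2, by 4.29 (edgeR adjusted p = 0.00861). Both kept a large difference without GLA-SE replicate 3, at 3.64 and 2.19. All 6 other negative regulators were called higher, led by Socs1 (1.56) and Irak3 (1.37), but their median of 0.70 lay under the panel median of 0.90. Under panel-median scaling 0 were higher and 4 lower, with TMM 1 and 2, and with DESeq2's own size factors 2 and 2. None of these pathway genes was called in SE against PBS or in GLA-SE against SE.

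Many cell markers also differed between GLA-SE and PBS tumors on the reference scale. The 8 monocyte and macrophage markers were all called higher in GLA-SE against PBS, and their sum was 2735 to 3918 with PBS, 2150 to 17578 with SE and 8387 to 19260 with GLA-SE. Of 6 neutrophil markers 3 were called higher, with sums of 209 to 242, 205 to 1194 and 814 to 9017. S100a8 made up most of the highest sum (7805). All GLA-SE tumors lay above all PBS tumors for S100a8, Csf3r and Cxcr2, but not for Ltf, Mpo and Elane. The 8 endothelial and fibroblast markers were all called higher (4049 to 9185, 3479 to 119402 and 18094 to 26385), as were 5 of 7 T-cell, 3 of 4 NK-cell and 2 of 4 dendritic-cell markers, beside 68.4% of all tested genes. Of 8 B-cell markers 0 were higher and 2 were lower. Under panel-median scaling 3 of the monocyte and macrophage markers were still higher and 0 lower, 2 neutrophil markers were higher and 3 lower, 0 of the endothelial and fibroblast markers were higher and 1 lower, 0 of the T-cell markers were higher or lower, 0 of the NK-cell markers were higher and 1 lower, 0 of the dendritic-cell markers were higher and 2 lower, and all 8 B-cell markers were lower. TMM and DESeq2's own size factors gave marker counts equal to each other. All 8 monocyte and macrophage markers were higher, 3 neutrophil markers were higher and 1 lower, and 7 B-cell markers were lower. Also higher were 2 endothelial and fibroblast markers and 1 T-cell marker, while 1 NK-cell and 2 dendritic-cell markers were lower. The smallest count in the whole table was 1, so no marker was at 0, but some were low. Under 20 counts in every tumor of a group were 1 neutrophil marker with PBS, 2 with SE and 2 with GLA-SE. The same held for 1 NK-cell marker with SE. The part of these markers in the values of the 8 NF-κB genes was not tested.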

How the data were processed

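The authors deposited 1 table of whole-number probe counts from the nCounter mouse PanCancer Immune Profiling Panel (770 genes, 20 of them reference genes) for 12 tumors. The methods describe normalization in nSolver, but totals and reference genes differed between tumors, so the deposited counts were treated as not normalized. No genome build applies to the counts. Groups came from the sample labels. The 8 genes and all lists were chosen with earlier results of these data known.

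Each tumor was scaled by 16 reference genes, those that geNorm kept over the 12 tumors, through their geometric mean. The other 750 genes were compared pairwise (8 tumors each) with edgeR 4.0.16 in R 4.3.3 (quasi-likelihood test, no low-count filter, no covariates), with Benjamini-Hochberg adjustment over 750 genes and a threshold of 0.05. Single values and ratios to Rela were compared by two-sided exact permutation over 70 assignments. The named genes were all 8 members, the 2 genes most like each (group means of at least 20), and the 2 called genes with the largest change in each pathway list. A gene that this rule picks is not reported here. The fits were tested on simulated data. Total counts were 810260 to 1612415 per tumor, and precision is limited by the 4 tumors per group. The alternatives were other reference sets, panel-median and TMM scaling, a filter of 20 counts in 4 tumors, 1 fit of all 12 tumors, the replicate number as a block, limma 3.58.1 on log2(normalized count + 1), DESeq2 1.42.0, Tbk1 as denominator and leaving out each tumor. Leaving out GLA-SE replicate 3 and SE replicate 4 together was added after seeing the data. Figures were drawn with matplotlib 3.10.9.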

Additional observations from a re-analysis of the deposited data

Results flagged for a closer look

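Single tumors lay far from the other 3 of their group (by Dixon's ratio of the gap to the range) in 9 of 45 sets of 4 values, where chance flags about 5% of sets, or 2.25 of 45. The sets share tumors and are not independent. In GLA-SE replicate 3 the normalized counts were 4483 for Nfkbia (1132 to 1544 in the other 3), 2737 for Tnfaip3 (628 to 817), 2431 for Nfkb1 (1577 to 1694), 1958 for Relb (1035 to 1189) and 1327 for Rel (660 to 760). Relative to Rela in the same tumor, Nfkbia was at 2.16 (0.91 to 1.07 in the other 3) and Tnfaip3 at 1.45 (0.06 to 0.15) on the log2 scale. In SE replicate 4 Nfkb1 was at 1864 (1354 to 1416). In PBS replicate 2 the log2 ratio of Nfkbia to Rela was 0.23 (0.49 to 0.54), below the other PBS tumors.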

How the results depend on the processing

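The direction of the subunits depended on the scaling. Panel-wide scalings use the tested genes, many of which were higher in GLA-SE tumors relative to the reference genes. Which scale is nearer to the true amounts of RNA was not tested. In GLA-SE against PBS, panel-median scaling gave log2 fold changes of -0.87 for Nfkb1, -1.21 for Nfkb2, -1.08 for Rel, -0.86 for Rela and -0.53 for Relb, with 0.11 for Nfkbia, 0.45 for Tnfaip3 and 0.36 for Ikbke (0 of the 8 called higher and 5 lower, and 61 and 307 of the tested genes). TMM scaling gave -0.48, -0.82, -0.69, -0.47 and -0.13 for the subunits in that order, 0.52 for Nfkbia and 0.86 for Tnfaip3 (1 higher and 4 lower of the 8, 148 and 168 of tested genes). DESeq2 with its own size factors gave -0.42, -0.76, -0.63, -0.41 and -0.075, and 0.57 for Nfkbia (2 and 4 of the 8, 190 and 152 of tested genes). Under both settings the calls of higher were among Nfkbia, Tnfaip3 and Ikbke, whose median was 0.75 with TMM and 0.81 with DESeq2. In SE against PBS the same 3 settings turned Nfkb1 (-0.25, -0.27 and -0.22), Rel (-0.32, -0.35 and -0.29), Rela (-0.17, -0.18 and -0.13) and Relb (-0.15, -0.16 and -0.11). Panel-median scaling also turned Tnfaip3 (-0.053, and -0.030 with TMM) and Ikbke (-0.069) there. In GLA-SE against SE the same 3 settings turned Nfkb1 (-0.62, -0.17 and -0.26), Nfkb2 (-0.76, -0.26 and -0.36), Rel (-0.76, -0.30 and -0.39) and Rela (-0.69, -0.26 and -0.34), and Relb turned with panel-median scaling (-0.37) and DESeq2 (-0.024). No subunit was called in these last 2 comparisons under any of the 3 settings. Nfkbia kept its sign under every setting in all 3 comparisons, as did Tnfaip3 and Ikbke in GLA-SE against PBS and GLA-SE against SE.

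With all 20 reference genes Rela was 0.37 and not called (8 tested genes lower). One fit of all 12 tumors gave 0.45 for Nfkb1 and 0.46 for Rela, neither called, with 255 tested genes higher and 0 lower in GLA-SE against PBS, and 77 and 2 in GLA-SE against SE. Replicate numbers did not pair the tumors, which came from different mice and whose deviations correlated between -0.25 and 0.18. With the replicate number as a block, Nfkb1 (0.43) and Rela (0.43) were not called in GLA-SE against PBS, and 0 tested genes were higher in GLA-SE against SE. In SE against PBS, DESeq2 called 47 tested genes higher and 6 lower with the reference genes, among them 1 of the 8 (Nfkbia, 0.51), and 4 and 5 with its own size factors. In GLA-SE against SE it called 101 and 7, and 48 and 24. Panel-median scaling called 0 tested genes higher there and TMM 3. Leaving out GLA-SE replicate 3 and SE replicate 4 together, chosen after seeing the data, called 52 and turned Rel (-0.0072). With Tbk1 as denominator, the ratio of Relb overlapped in GLA-SE against PBS (0.22), and in GLA-SE against SE those of Relb (0.18) and Nfkbia (0.45) overlapped and that of Nfkb1 turned (-0.027).

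Leaving out each tumor in turn gave these ranges. In GLA-SE against PBS they were 0.29 to 0.52 for Nfkb1, -0.039 to 0.18 for Nfkb2, -0.017 to 0.37 for Rel and 0.29 to 0.55 for Rela, with 3 to 5 tested genes lower. Ratios to Rela ran from -0.032 to 0.030 for Nfkb1, from -0.30 to -0.18 for Rel and from 0.55 to 0.97 for Nfkbia, whose exact p was 0.0571 without any 1 PBS tumor although the groups did not overlap. In SE against PBS Rel ran from -0.0093 to 0.10. The ratios ran from -0.14 to -0.081 for Nfkb1, -0.73 to -0.19 for Nfkb2, -0.025 to 0.065 for Relb, 0.18 to 0.29 for Nfkbia and -0.10 to 0.43 for Ikbke. In GLA-SE against SE 0 to 1 of the 8 and 4 to 104 tested genes were higher (104 without SE replicate 4, 4 without GLA-SE replicate 2 or 4 or SE replicate 3) and 0 to 1 lower. Rel ran from -0.066 to 0.32 and Ikbke from 0.73 to 1.56. The ratios ran from -0.15 to 0.39 for Nfkb2, -0.11 to 0.018 for Rel, 0.27 to 0.36 for Relb, 0.29 to 0.71 for Nfkbia, 0.63 to 1.09 for Tnfaip3 and 0.78 to 1.31 for Ikbke. Of 849 recomputed values, 708 were rated as unchanged. For a fold change or a ratio this means the same direction and side of the threshold. For a count of called genes it means an equal or similar count. Precision is limited by the 4 tumors per group and by the counts, of which the lowest for any of the 8 genes was 72.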
